A study of Mus musculus with 12 samples.

Results

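RNA polymerase III (Pol III) and the enzymes that modify transfer RNA (tRNA) were followed in mouse leukaemia cells that had lost the kinase RIOK2. The 53 members were the rows whose symbol names a Pol III subunit (Polr3), an initiation factor of Pol III (Gtf3a, Gtf3c, Brf, Bdp1), a Trmt or Nsun methyltransferase, a subunit of Elongator (Elp) or a Pus pseudouridine synthase. They were 53 of 24221 rows, picked by a rule on the symbol, and 52 of them had an adjusted p-value. The rule was set with earlier results of these data known, so the choice was not blind to the values. The cells were C57BL/6 leukaemia cells carrying the MLL-AF9 fusion. Riok2fl/fl cells, in which loxP sites flank Riok2, were compared 72 h after hydroxytamoxifen (OHT) with the same kind of cells 72 h after the vehicle ethanol (EtOH), with 3 samples in each group. MLL-AF9 cells given DMSO or 1 µM of a RIOK2 inhibitor, also 3 samples each, are not analysed here. Both groups compared carried the floxed alleles. The driver of the Cre recombinase was not given in the sources used here, and the labels list no OHT-treated cells without floxed alleles, so effects of OHT itself and of Riok2 loss cannot be told apart.

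Pol III transcribes short RNAs that every cell needs for translation, above all tRNAs and the smallest ribosomal RNA. TFIIIA brings TFIIIC to the ribosomal RNA gene, TFIIIC binds promoter elements inside tRNA genes, and TFIIIB, built from BRF1 or BRF2 with BDP1 and the TATA-binding protein, recruits the polymerase. New tRNAs are then trimmed, in part spliced, and modified at many bases, which stabilises their fold and tunes decoding at the wobble base of the anticodon.

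The table held no values per sample. Each gene had a base mean (normalised reads averaged over the libraries), a fold change on the log2 scale and its standard error, which follows each ± below. Riok2 itself stood at -3.60 ± 0.20 in the authors' deposited table, from which all folds are read as OHT over EtOH. Base means added up to 20307732 normalised reads. Of the myeloid markers, Mpo had a base mean of 34343 and Ptprc one of 9796 in the authors' deposited table. Of 5 B cell genes, 3 were listed at 0 in the authors' deposited table (Ms4a1 and Pax5 among them), while Cd79b (base mean 149) fell and Cd79a (9.49) rose. Of 5 T cell genes, Cd3e and Cd8a were listed at 0 and Cd3d (base mean 16.01) rose in the authors' deposited table. Of 6 erythroid genes, Hba-a1 and Hbb-b1 were listed at 0, and none of the others, of which Gata1 was highest at a base mean of 86.0, passed in the authors' deposited table. Stromal genes reached a base mean of 41.8 (Pdgfrb), and 1 of 5, Col1a1 (35.3), rose in the authors' deposited table. Of 12 myeloid genes 6 fell and 3 rose. Markers of maturation moved with OHT: 8 of 8 neutrophil genes rose (median log2 fold change 2.64) and 7 of 8 macrophage genes rose (median 2.91). Summed levels in each group were not at hand, and the part of these markers in the members' results was not tested. In bulk RNA, fewer cells of a type and less RNA per cell cannot be told apart. Replicates are not said to be separate cultures, so p-values reflect the spread between these samples, which could be technical.

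Of the 52 members tested, 34 were lower in OHT and 0 were higher at an adjusted p-value under 0.05, and 18 did not pass. Over all 13814 genes tested, 23.4% were lower and 25.5% higher. Among the 9478 genes within the members' own range of base means (90.7 to 6472), 29.3% were lower and 29.0% higher. The members' median log2 fold change was -0.65, beside 0.05 over all genes tested. The fall was smallest in the authors' deposited table for Polr3b, at -0.32. A total of 10 of the 34 stood below 50% of the EtOH level, and for 3, among them Nsun2 and Trmt1, the whole 95% interval lay below 50%. Folds of the 18 that did not pass lay between -0.37 and 0.31, and their 95% intervals together spanned -0.72 to 0.62.

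The background moved with the rule for a call. At an adjusted p-value under 0.01, 32 members were lower, beside 19.1% of all genes lower and 20.7% higher. With no filter on low values 33 were lower, beside 17.9% lower and 19.5% higher of all genes. At a base mean of at least 10 it was 34, beside 26.8% and 28.8%, and with standard errors above 0.5 left out 34, beside 29.2% and 28.8%. With folds recentred on the median gene 35 were lower, beside 25.2% (3487 genes) lower and 23.9% (3307 genes) higher. No member was higher under any of these rules.

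**Figure D1:**
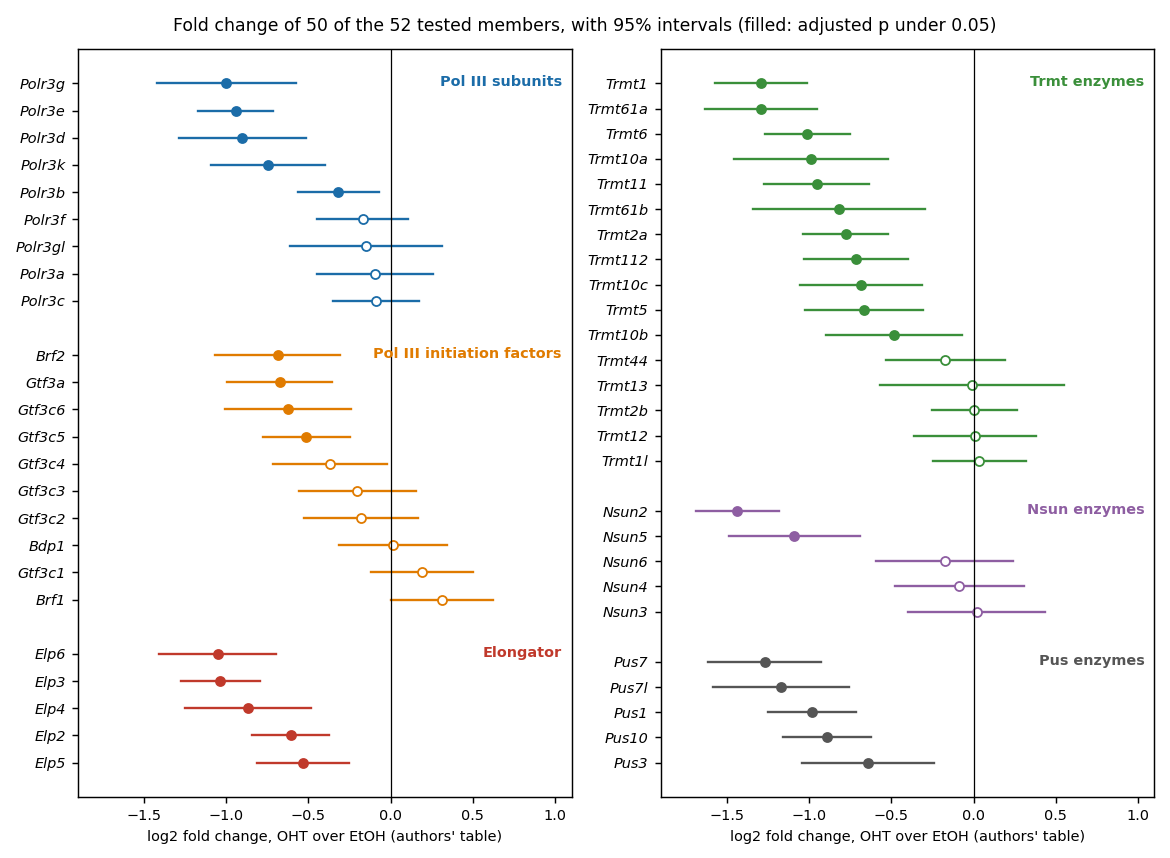
Log2 fold change, OHT over EtOH, of 50 of the 52 tested members by role group, from the authors' comparison of 3 with 3 samples. Points are fold changes, bars are 95% intervals from the authors' standard errors, and filled points passed an adjusted p-value under 0.05. All 10 Elongator and Pus genes shown are filled and left of 0, while the other groups hold both filled and open points.

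Since so many members fell together, their promoters were searched for short motifs. RefSeq windows on GRCm38.p6, from 250 bases before to 50 bases after a gene's start, matched 41 of the 53 members by symbol, with 52 windows, and windows of 1 gene can overlap. The E-box CACGTG, a palindrome that MYC with MAX and related factors bind, stood in 10 of 33 windows of members that fell (30.3%), in 2 of 18 windows of members that did not pass (11.1%) and in 2349 of all 32851 windows (7.15%). By gene, 8 of 25 members that fell and have a window held a match, as did 2 of 15 that did not pass. The genes that fell with a match were Gtf3c6, Polr3e, Pus1, Pus3, Pus7, Trmt10a, Trmt61a and Trmt61b. Polr3c and Polr3gl had a match without passing. All windows came from 27025 genes, tested here or not, and windows of expressed genes alone were not counted. The shares over all windows are therefore no background for genes expressed in these cells. The members' windows were richer in G and C, with a median of 60.3% beside 52.7% over all windows, and the part of this in the counts was not tested. Matches upstream of the start are shown with their flanks because they let the setting of the motif be compared between genes that fell (Trmt10a to Gtf3c6) and genes that did not pass (Polr3gl, Polr3c). Each runs 5′ to 3′ on the gene's strand and ends at the start site at the latest, with the E-box in capitals.
Trmt10a: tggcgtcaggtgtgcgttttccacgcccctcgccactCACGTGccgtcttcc
Trmt61b: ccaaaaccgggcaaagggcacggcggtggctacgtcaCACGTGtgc
Pus3: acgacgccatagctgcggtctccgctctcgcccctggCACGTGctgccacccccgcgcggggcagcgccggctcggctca
Gtf3c6: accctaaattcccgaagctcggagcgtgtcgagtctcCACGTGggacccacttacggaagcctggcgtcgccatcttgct
Polr3gl: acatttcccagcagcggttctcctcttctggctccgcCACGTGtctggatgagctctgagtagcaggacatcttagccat
Polr3c: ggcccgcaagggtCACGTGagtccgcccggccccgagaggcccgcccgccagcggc

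These stretches lie at chr3:138143747-138143798 (plus strand, Trmt10a), chr17:71598762-71598807 (minus, Trmt61b), chr9:35558391-35558470 (plus, Pus3), chr10:40257726-40257805 (minus, Gtf3c6), chr3:96594333-96594412 (minus, Polr3gl) and chr3:96727634-96727689 (minus, Polr3c). Counted from the start site, the first base of the motif was at -15 in Trmt10a, -9 in Trmt61b and -132 in Pus3, which fell. It was at -194 in Polr3gl and -237 in Polr3c, which did not pass. Trmt61a, Pus7 and Polr3e, which also fell, have their match past the start, at 25, 28 and 5 bases, and are not shown. In Gtf3c6 the same motif counts for 2 windows, at -56 and -206 from 2 annotated starts, and in Pus1 another does so at 3 and 22 bases past its starts, so the 10 windows of members that fell hold 8 distinct matches, 1 for each of 8 genes. A match describes letters, not binding.

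Another 9 motifs were searched on both strands. CCGGAAGT, bound by ETS factors, was in 18.2% of windows of members that fell, 11.1% of those that did not pass and 3.89% of all windows. For TGACGTCA, the cAMP response element, these shares were 9.09%, 11.1% and 1.79%. The NRF1 palindrome with any base at its free position was in 12.1%, 11.1% and 4.60%. GGGCGG was in 54.5%, 44.4% and 35.7%, and CCAAT in 36.4%, 22.2% and 37.4%. TATAAA was in 3.03% of windows of members that fell, 0 of the 18 that did not pass and 13.6% of all. The A form of this NRF1-type pattern, the true palindrome, was in 0 of the members' windows and in 0.971% of all, so no match in the members was a palindrome. TGATGCAA, a composite element of C/EBP and ATF factors, and the ZNF143 motif were in 0 of the members' windows and in 0.895% and 0.286% of all.

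Of the 10 subunit genes that carry the Pol III name, 6 fell and 4 did not pass, with all 10 folds below 0. The share that fell was 60.0%, beside 23.4% over all genes tested and 29.3% within the members' range of base means. Crcp, which encodes a subunit of the stalk and bears another name, was listed in the authors' deposited table at -0.45 ± 0.16 (adjusted p = 0.01).

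Polr3d and Polr3e encode a heterodimer that acts in initiation and termination, and their falls were close to each other. For Polr3d the authors' deposited table gave -0.90 ± 0.20 and for Polr3e -0.94 ± 0.12. Polr3k encodes the subunit that cleaves RNA in the active centre and is needed for termination, and it was at -0.75 ± 0.18 in the authors' deposited table. The catalytic core is formed by the products of Polr3a and Polr3b. Polr3b, with the smallest fall that passed among all members, was listed in the authors' deposited table at -0.32 ± 0.13 (adjusted p = 0.025), and its call was lost at 0.01. For Polr3a, the largest subunit, the authors' deposited table gave -0.10 ± 0.18 (adjusted p = 0.68), with a 95% interval of -0.45 to 0.25.

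The heterotrimer that opens the promoter is built from the products of Polr3c and Polr3f with that of either Polr3g or Polr3gl, which are paralogs. Neither Polr3c (-0.09 ± 0.13, adjusted p = 0.60) nor Polr3f (-0.17 ± 0.14, adjusted p = 0.33) passed in the authors' deposited table. Polr3g, the paralog known from stem and tumour cells, was listed in the authors' deposited table at -0.999 ± 0.22 (adjusted p = 1.8e-05), with a 95% interval of 37.3 to 67.1% of the EtOH level. Polr3gl, the paralog of most differentiated tissues, stood in the authors' deposited table at -0.15 ± 0.24 (adjusted p = 0.63). Polr3g minus Polr3gl was -0.85 on the log2 scale. Their 95% intervals, from -1.42 to -0.58 and from -0.61 to 0.31, overlapped slightly, which by itself does not decide whether the genes differ. This difference was not tested, since the table holds no values per library.

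Levels of the subunit genes were computed here as base mean over both groups per kilobase of the longest annotated transcript. They ran from 141 for Polr3a and 144 for Polr3f to 436 for Polr3k and 486 for Polr3c. On this scale Polr3gl stood at 364 and Polr3g at 173. Their base means were close, 519 and 529 in the authors' deposited table, and the gap came from the lengths, 1427 and 3054 bases. Which transcripts these cells use was not tested, and exons of Polr3gl overlap those of Gm16253. No spread over samples was at hand to say which neighbours in the order differ.

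The 8 other genes for subunits of the enzyme, shared with Pol I or Pol II except for Crcp, all fell. The deepest in the authors' deposited table were Polr1c (-1.46 ± 0.18), Polr2h (-1.24 ± 0.20) and Polr2f (-1.02 ± 0.14), and the least deep were Polr2e (-0.73 ± 0.18) and Crcp. All 5 Polr1 genes and 11 of 13 Polr2 genes were lower in OHT, beside 6 of 10 Polr3 genes. Over all genes tested 23.4% were lower, and 29.3% within the members' range of base means. Polr2a (0.35 ± 0.19, adjusted p = 0.12) and Polr2b (-0.18 ± 0.14, adjusted p = 0.28), which encode the catalytic core of Pol II, were the Polr2 genes that did not pass in the authors' deposited table. Polr1a, which corresponds to Polr3a in Pol I, was listed in the authors' deposited table at -0.47 ± 0.20 (adjusted p = 0.045). Some of the genes counted are shared: Polr1c and Polr1d serve Pol I and Pol III, and Polr2e, Polr2f, Polr2h, Polr2k and Polr2l serve all 3 enzymes.

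Among the 10 initiation factor genes, 4 fell (40.0%) and 6 did not pass. Beside this stand 23.4% lower over all genes tested and 29.3% within the members' range of base means, so this small group lay near the background. Gtf3a, which encodes TFIIIA, was given in the authors' deposited table at -0.68 ± 0.16 (adjusted p = 0.00014). TFIIIC is built from 6 subunits, and the genes of its smaller ones passed, Gtf3c5 at -0.51 ± 0.13 and Gtf3c6 at -0.63 ± 0.20 in the authors' deposited table. Gtf3c4 was listed in the authors' deposited table at -0.37 ± 0.18 (adjusted p = 0.071), and passed at -0.42 (adjusted p = 0.037) once folds were recentred. Gtf3c1 (0.19 ± 0.16), Gtf3c2 (-0.18 ± 0.18, base mean 1770, the most abundant factor gene) and Gtf3c3 (-0.20 ± 0.18) did not pass in the authors' deposited table.

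The TFIIIB genes went apart. Brf2, whose product serves the Pol III promoters that lie upstream of their gene, was given in the authors' deposited table at -0.69 ± 0.19 (adjusted p = 0.0012). Brf1, whose product serves tRNA genes, had the highest fold of all members in the authors' deposited table, 0.31 ± 0.16 (adjusted p = 0.09). The 95% intervals of Brf2 (-1.07 to -0.31) and Brf1 (0.0029 to 0.62) did not overlap, and the difference was not tested. Bdp1, which both forms of TFIIIB contain, was listed in the authors' deposited table at 0.01 ± 0.17 (adjusted p = 0.96).

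Of 10 other Pol III factors and regulators, 4 fell and 1 rose, with a median log2 fold change of -0.06. The deepest in the authors' deposited table were Ssb (-0.53 ± 0.20), which encodes the La protein that binds the ends of new Pol III transcripts, Tbp (-0.49 ± 0.13), the TATA-binding protein gene, and Snapc4 (-0.45 ± 0.19). Pou2f1, an octamer-binding factor, was the 1 that rose (0.56 ± 0.23, adjusted p = 0.03), and Snapc3 was given in the authors' deposited table at 0.28 ± 0.21 (adjusted p = 0.27). Maf1, the repressor of Pol III, named after its value was seen, was listed in the authors' deposited table at -0.08 ± 0.20 (adjusted p = 0.76).

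A few products of Pol III had rows of their own. Rpph1, the RNA of ribonuclease P, which trims the leading end of tRNAs, was given in the authors' deposited table at -1.60 ± 0.35 (adjusted p = 2.2e-05, base mean 69.4). Rmrp, a related RNA that acts on ribosomal RNA precursors, was listed in the authors' deposited table at -1.94 ± 0.57 (adjusted p = 0.002, base mean 24.4). Both fell, from low base means, while Vaultrc5 and Bc1 had no adjusted p-value. Other Pol III products looked for, among them Rn7sk, Rn7s1, Rny1, Rny3 and Rn5s, had no row under these names. How well these libraries captured short RNAs was not tested, so the rows do not measure the output of Pol III.

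Of the 16 Trmt genes, 11 fell and 5 did not pass, with a median log2 fold change of -0.70. The share that fell was 68.8%, beside 23.4% over all genes tested and 29.3% within the members' range of base means. Trmt1 (ENSMUSG00000001909.16, GRCm38 chromosome 8, 84686307 to 84699808, plus strand, protein coding) encodes the enzyme that makes dimethylguanosine in tRNA. It was given in the authors' deposited table at -1.29 ± 0.14 (adjusted p = 3.6e-18), which is 40.8% of the EtOH level (95% interval 33.6 to 49.5%). Its paralog Trmt1l was listed in the authors' deposited table at 0.04 ± 0.14 (adjusted p = 0.86). The 95% intervals of the pair, -1.57 to -1.01 and -0.25 to 0.32, did not overlap.

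Both genes of the enzyme that methylates adenosine in the body of cytosolic tRNAs fell. Trmt61a, the catalytic subunit, was at -1.29 ± 0.17 and Trmt6, its partner, at -1.01 ± 0.13 in the authors' deposited table. Trmt61b, a mitochondrial counterpart of Trmt61a with the E-box closest to its start among those shown, was listed in the authors' deposited table at -0.82 ± 0.27 (adjusted p = 0.006). Trmt11, which makes methylguanosine, was at -0.95 ± 0.16 in the authors' deposited table. Trmt112, its partner, which also activates methyltransferases of ribosomal RNA and of a release factor, was at -0.71 ± 0.16 in the authors' deposited table.

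The 3 paralogs of the Trmt10 family, which methylate purines near the acceptor stem, all passed. For Trmt10a the authors' deposited table gave -0.99 ± 0.24, for the mitochondrial Trmt10c -0.68 ± 0.19 and for Trmt10b -0.48 ± 0.21 (adjusted p = 0.046). Trmt10b lost its call at 0.01, and also with no filter on low values (adjusted p = 0.058). Trmt10c works in the mitochondrial ribonuclease P with the products of Hsd17b10 and 1110008L16Rik (an older name of Prorp), named after their values were seen. These were at -0.69 ± 0.14 and -0.99 ± 0.20 in the authors' deposited table, so all 3 genes of this enzyme fell. Trmt5, which methylates the guanosine next to the anticodon, was at -0.67 ± 0.18 in the authors' deposited table.

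Trmt2a, the most abundant Trmt gene with a base mean of 2073, makes methyluridine in cytosolic tRNAs and was given in the authors' deposited table at -0.78 ± 0.13 (adjusted p = 2.4e-08). Its mitochondrial paralog Trmt2b was listed in the authors' deposited table at 0.01 ± 0.13 (adjusted p = 0.98), with a 95% interval of -0.25 to 0.27 that did not overlap that of Trmt2a. Trmt12 (0.01 ± 0.19), of the wybutosine pathway, and Trmt13 (-0.01 ± 0.28) and Trmt44 (-0.17 ± 0.18), which methylate ribose, also had no call in the authors' deposited table. Trmt13 had the lowest base mean of the tested members, 90.7, and the widest 95% interval, -0.57 to 0.55, which includes the fold of Trmt10b.

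Nsun enzymes methylate cytosine, and 2 of the 5 tested fell (40.0%). The share was 29.3% within the members' range of base means, so this small group lay near the background. Nsun2 (ENSMUSG00000021595.18, GRCm38 chromosome 13, 69533746 to 69635780, plus strand, protein coding), which modifies many cytosolic tRNAs, was the most abundant of all members with a base mean of 6472. It was given in the authors' deposited table at -1.44 ± 0.13 (adjusted p = 6.2e-27), which is 36.9% of the EtOH level (95% interval 31.0 to 44.0%). Nsun5, which acts on ribosomal RNA of the large subunit, was listed in the authors' deposited table at -1.09 ± 0.20 (adjusted p = 6.0e-07). The mitochondrial enzymes Nsun3 (0.02 ± 0.21) and Nsun4 (-0.09 ± 0.20), and Nsun6 (-0.17 ± 0.21), which methylates the acceptor end of a few tRNAs, did not pass in the authors' deposited table. Nsun7 had a p-value of 0.76 but no adjusted one in the authors' deposited table, with a base mean of 0.15, or 0.90 normalised reads over 6 libraries.

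Every one of the 6 Elongator genes fell, beside 23.4% over all genes tested and 29.3% within the members' range of base means. Elongator is a protein complex that begins the modification of the wobble uridine. Elp3 (ENSMUSG00000022031.6, GRCm38 chromosome 14, 65530449 to 65593075, minus strand, protein coding), its catalytic subunit, was given in the authors' deposited table at -1.04 ± 0.12 (adjusted p = 5.4e-16), or 48.8% of the EtOH level. Elp2, the most abundant with a base mean of 2194, was at -0.61 ± 0.12 in the authors' deposited table. The accessory ring is formed by the products of Elp4 (-0.87 ± 0.20), Elp5 (-0.53 ± 0.14) and Elp6 (-1.05 ± 0.18), with values from the authors' deposited table.

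A few other genes that serve the wobble uridine were singled out after their values were seen, and they stand for no list. The methyltransferase gene Alkbh8, whose product needs Trmt112, was given in the authors' deposited table at -0.52 ± 0.19 (adjusted p = 0.013). Urm1 (-0.84 ± 0.19) and Ctu2 (-0.76 ± 0.13), which serve its thiolation, fell, and Ctu1 (-0.41 ± 0.21, adjusted p = 0.093), the partner of Ctu2, did not pass in the authors' deposited table. Kti12, which encodes a cofactor of Elongator, was at -1.28 ± 0.14 in the authors' deposited table.

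All 5 Pus genes fell as well, beside the same 23.4% over all genes tested and 29.3% within the members' range of base means. Their enzymes turn uridine into pseudouridine in tRNA and other RNAs. Pus7 (ENSMUSG00000057541.14, GRCm38 chromosome 5, 23740648 to 23783711, minus strand, protein coding) was given in the authors' deposited table at -1.27 ± 0.18 (adjusted p = 6.2e-12), or 41.4% of the EtOH level. Its paralog Pus7l was listed in the authors' deposited table at -1.17 ± 0.21, and Pus7 minus Pus7l was -0.10, less than either standard error. Pus1, which acts in the nucleus and in mitochondria, was at -0.98 ± 0.14 in the authors' deposited table. Pus10, the most abundant with a base mean of 1163, was at -0.89 ± 0.14, and Pus3, which modifies the anticodon arm, at -0.64 ± 0.21 in the authors' deposited table.

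**Figure D2:**
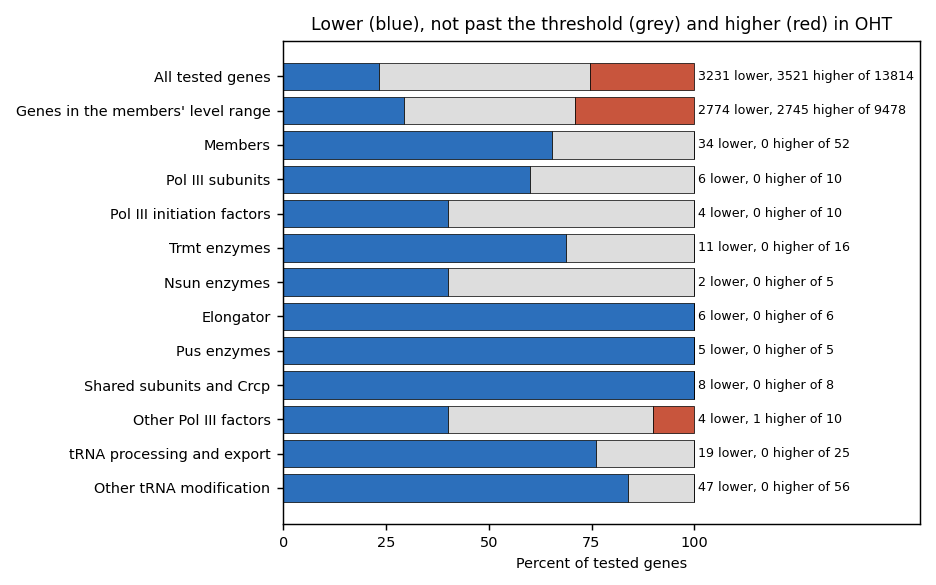
Percent of tested genes lower in OHT (blue), not past the threshold (grey) and higher (red) in each gene group, at the authors' adjusted p-value under 0.05; the counts stand beside the bars. The members have 34 lower and 0 higher of 52, beside 3231 lower and 3521 higher of 13814 tested genes.

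The rest of the tRNA pathway was read from lists made by function. Of 25 genes of tRNA end processing, splicing and export, 19 fell and 0 rose, with a median log2 fold change of -0.82. The share that fell was 76.0%, beside 23.4% lower and 25.5% higher over all genes tested. Among the deepest in the authors' deposited table were Rpp40 (-1.57 ± 0.27) and Rpp38 (-1.18 ± 0.30), protein subunits of ribonuclease P. Elac1 (0.28 ± 0.18, adjusted p = 0.18) and Tsen34 (0.16 ± 0.20, adjusted p = 0.53) had the highest folds of this list in the authors' deposited table. Xpot, the export receptor of tRNA, named after its value was seen, was at -1.15 ± 0.11 in the authors' deposited table.

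On the list of 56 genes of other tRNA modification enzymes and their partners, 47 fell and 0 rose, with a median of -0.68. The share that fell was 83.9%, beside 23.4% over all genes tested. Mettl1, which makes methylguanosine in the variable loop, was lower in the authors' deposited table than any member, at -1.82 ± 0.19 (adjusted p = 1.9e-20). Its partner Wdr4, named after its value was seen, was at -0.99 ± 0.14 in the authors' deposited table. Next to Mettl1 came the dihydrouridine synthase gene Dus4l (-1.77 ± 0.29) and Dtwd1 (-1.29 ± 0.16) in the authors' deposited table. Tyw3 (0.13 ± 0.24, adjusted p = 0.69), of the wybutosine pathway, and Rpusd1 (-0.20 ± 0.18, adjusted p = 0.36) had the highest folds of this list in the authors' deposited table. Over the 4 lists together 78 of 99 genes fell and 1 rose.

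The level of a member did not go with its fold: over the 52 tested members Spearman's rho between base mean and log2 fold change was -0.05, a description of genes measured in the same libraries. Members that fell and members that did not pass had median standard errors of 0.17 and 0.18 and median base means of 747 and 648.

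**Figure D3:**
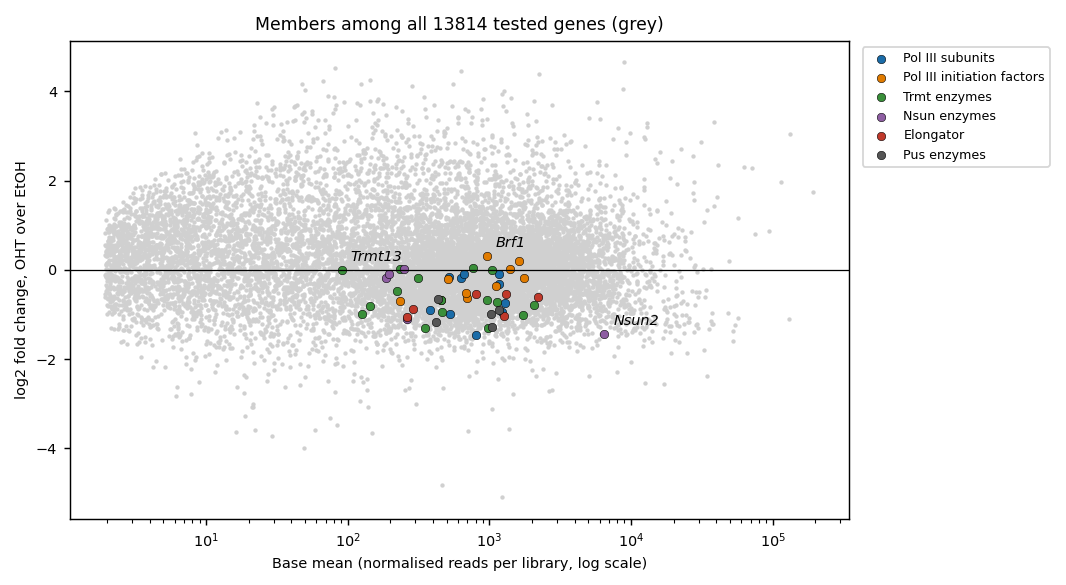
Log2 fold change, OHT over EtOH, against base mean in normalised reads per library (log scale) for all 13814 tested genes (grey) and the members by role group (colours). The members lie between base means of 90.7 and 6472, and the highest of their folds is 0.31 for Brf1.

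Transcript length moved with the fold. Members that fell had a median transcript length of 2655 bases (985 to 6160) and members that did not pass one of 3866 bases (1427 to 9921), with the longest transcript of GENCODE M21 taken for each gene, among protein-coding transcripts where the gene is classed as protein coding (Trmt61b is classed as antisense). Spearman's rho between length and log2 fold change was 0.33 over the 52 members and 0.32 over 9289 genes of the same range of base means, all from the same libraries. Of the 39 members with transcripts of up to 4000 bases 29 fell (74.4%), beside 36.4% of 6039 genes in that range of levels and lengths. Of the 13 longer members 5 fell (38.5%), beside 15.8% of 3250 genes. The split at 4000 bases was chosen after the data were seen. Polr3a, Gtf3c1, Gtf3c2, Gtf3c3 and Bdp1, which did not pass, are among the longer ones, as are Nsun2, Polr3e, Trmt10a and Polr3b, which fell. The part of length in the results of these genes was not tested.

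**Figure D4:**
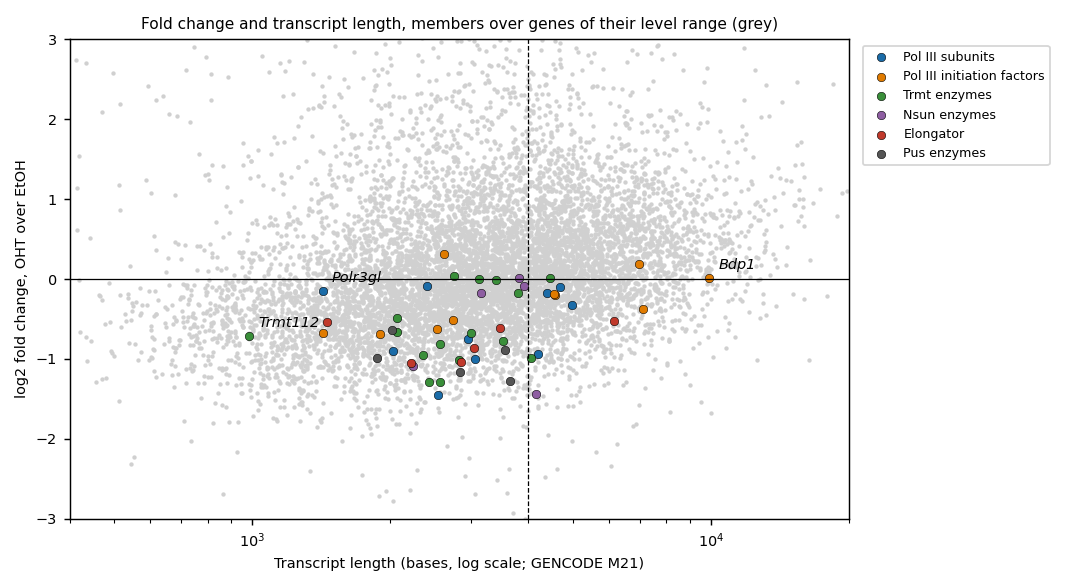
Log2 fold change, OHT over EtOH, against transcript length in bases (log scale, GENCODE M21) for the members (colours by role group) over genes of the same range of base means (grey); the dashed line marks 4000 bases, and 86 grey genes lie outside the axes. Of 39 members left of the line 29 fell, and of 13 right of it 5 fell.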

How the data were processed

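The source was a single deposited result of the authors' DESeq2 Wald test, 3 OHT against 3 EtOH samples, with 0 columns of values per sample. RNA came from silica columns and libraries from a TruSeq RNA kit, per the labels' protocols. The submitters' processing notes name Trimmomatic 0.38.0 and HTSeq 0.9.1, the aligner STAR 2.7.2b, DESeq and DESeq2, and build mm10. Columns are unnamed, and counting options (strand among them) and annotation were not given in the sources used here. Deposited by the authors were base means (signal, as normalised reads), a fold change and standard error in log2 units, the Wald score, and the p-value with its adjusted form. The deposited score equalled fold over error within 7.6e-08, and the deposited adjusted p-value a Benjamini-Hochberg adjustment over 13814 genes within 2.3e-07. Standard errors never exceed 0.747, so folds are read as pulled towards 0, which understates low genes.

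Computed here, in Python 3.11.15 with pandas 2.3.3 and scipy 1.17.1, were counts, medians, 95% intervals from the deposited errors, levels per kilobase, lengths and exon overlaps (GENCODE M21, GRCm38) and motif matches. The adjustment of p-values and the recentring of folds were tested on simulated data. No test over samples was possible. Members and lists were chosen with earlier results of these data known. Named by rule were, per role group, the 4 lowest and 3 highest folds, the most abundant gene, all members that did not pass and set paralogs, and in other lists the 3 lowest and 2 highest at a base mean of at least 100 and any call against the majority. Other members complete their group, other names are marked, and a few genes under the rule are counted but not reported here by name. Alternatives were a stricter threshold, other filters, current symbols and recentred folds.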

Additional observations from a re-analysis of the deposited data

How the results depend on the processing

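The count of 34 members that fell ran from 32 to 35 over the stricter threshold, the other filters and recentring on the median of all tested genes (0.05), which moved the members' median to -0.70. In each of these settings 0 members rose. The 1 rise among the other Pol III and tRNA genes became 0 at an adjusted p-value under 0.01 and 0 with recentred folds. Without the 19 members whose exons overlap another gene, an alternative added once the data had been seen, 20 of 33 fell, fewer genes by construction. The share over all genes without such overlap was not counted, so this count has no background beside it. With older names matched to current symbols there were 54 members, and the added Trmt9b had no adjusted p-value. No paired analysis was possible because the table holds no values per sample. For the same reason leaving out single replicates was not run, so the part of any 1 library was not tested.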

Other observations

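Exons of 19 members overlap those of another gene in GENCODE M21, among them 14 of the 34 that fell and 5 of the 18 that did not pass. Whether reads were counted by strand: not given in the sources used here. Without strand, reads in an overlap cannot be told apart, so these values are uncertain to that extent. Exons of Gtf3c2 overlap those of Gm29609 on the same strand, where counting by strand would not separate the reads. Several neighbours on the opposite strand had other folds, and some moved the same way as the member. Papd7, the older name of Tent4a, beside Nsun2, was at -0.02 ± 0.16, and Pom121, a nuclear pore gene beside Nsun5, at -0.02 ± 0.22 in the authors' deposited table, and neither passed. Trmt112 fell while its neighbours, the peroxiredoxin gene Prdx5 (0.76 ± 0.19) and Esrra (0.30 ± 0.12), rose in the authors' deposited table. Trmt2a, which fell, overlaps Ranbp1 (-1.19 ± 0.18), which fell, and Dgcr8 (-0.03 ± 0.16), which did not pass in the authors' deposited table. Pex13 beside Pus10 also fell, at -0.51 ± 0.16 in the authors' deposited table. Mttp beside Trmt10a (-0.71 ± 0.33) and Hyls1 beside Pus3 (-0.41 ± 0.22) were below 0 in the authors' deposited table but did not pass. Trmt112 also has 2 annotated pseudogene copies, so its counts may be split. These genes were singled out after their values were seen.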
